A study of Mus musculus with 20 samples.

Results

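The core circadian clock of mouse liver is described here through 10 genes: the activators Arntl, Clock and Npas2, the repressors Cry1, Cry2, Per1, Per2 and Per3, and the nuclear receptors Nr1d1 and Nr1d2. They were chosen as the textbook components of the clock, with earlier results of these data known, and matched by symbol. All 10 were found among the 55487 gene identifiers of the count table and passed the filter on low counts in every comparison of diets. The study asked how protein from fishmeal, salmon filet or beef acts in obese mice. All mice were female C57BL/6J, 28 weeks old at sampling. The labels give 5 mice that stayed on a low-fat chow, and 15 mice fed a high-fat diet (HFD) that later held fishmeal from salmon by-products (5 mice), salmon filet (6 mice) or beef (4 mice) as the source of part of its protein. Chow differed from the HFDs in fat, carbohydrate and protein alike, so the part of each in a difference from chow cannot be told apart.

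The clock is a loop of transcription that runs about once a day in nearly every cell. ARNTL (also called BMAL1) pairs with CLOCK or NPAS2 and switches on the Per, Cry and Nr1d genes, whose proteins then act back: PER and CRY block the activators, while the REV-ERB proteins made from Nr1d1 and Nr1d2 repress Arntl, Npas2, Clock and Cry1. In liver, feeding, hormones and signals from the brain set the phase of this loop, and the mRNAs peak at different times of day, with Arntl and Npas2 high when Per3 is low. A single liver therefore gives 1 point on the cycle. The time of day at which each mouse was killed is not given in the sources used here, so a difference between diets and a difference in time of day cannot be told apart in any result below.

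Libraries held 42526234 to 70266136 reads counted on genes. Protein coding genes took 93.2% to 95.6% of them, except in the beef mouse 35, where they took 84.3%. Mouse 31 is labelled as a salmon filet mouse, while its column in the count table is named for beef. Groups here follow the labels, also in the diet group means and diet group terms used below. The column names instead give 5 mice in each of the 4 groups. The paper describes sequencing equal numbers of mice from each diet, which the column names give and the labels do not. Beef is thus the likelier group for mouse 31, and the labelled grouping of salmon filet and beef is probably wrong for it. Every value for salmon filet or beef alone is uncertain to that extent. Genes whose edgeR call against chow differs under the column names are named below, for beef with their values under that grouping. The hepatocyte markers checked (8 genes, such as Alb and Ttr) summed to 9.19e+04 to 1.20e+05 CPM, the counts scaled to a common library size, in all mice. Bulk liver RNA cannot tell fewer cells of a type from less RNA per cell. Nothing in the labels says that the mice were housed or killed in separate batches.

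The start regions of the genes carry short sequences through which the loop is known to act: the E-box, bound by ARNTL pairs, the D-box, bound by DBP, TEF, HLF and NFIL3, and the RORE, bound by REV-ERB proteins. RefSeq (GRCm38.p6) gave 13 promoter windows for 9 of the 10 genes, each with 250 bases before and 50 after a transcription start. Both strands were searched. An E-box (CACGTG) was found in windows of 2 genes, Cry1 and Per1, and in 7.15% of all 32851 promoters. A D-box (TTATGNAA) was found in windows of 2 genes, Per1 and Per3, and in 3.38% of all promoters, while a RORE was found in a window of Arntl and in 0.383% of all promoters. The stretches with matches are shown because the 4 genes stand for the opposite sides of the pattern described below, Arntl and Cry1 on one side and Per1 and Per3 on the other. Capitals mark the matches. The first 3 are the windows before the start, without the bases that lie in an exon of GENCODE M21 (10 for Cry1, 1 for Per1), at chr10:85185065-85185304 on the minus strand, chr11:69098699-69098947 on the plus strand and chr4:151044666-151044915 on the minus strand. Those of Cry1 and Per3 lie before the annotated gene, and that of Per1 lies within the gene, since a longer transcript starts further upstream. The last is a stretch of 30 bases just after a start of Arntl, at chr7:113207527-113207556 on the plus strand, within the first, noncoding exon of the gene.
Cry1: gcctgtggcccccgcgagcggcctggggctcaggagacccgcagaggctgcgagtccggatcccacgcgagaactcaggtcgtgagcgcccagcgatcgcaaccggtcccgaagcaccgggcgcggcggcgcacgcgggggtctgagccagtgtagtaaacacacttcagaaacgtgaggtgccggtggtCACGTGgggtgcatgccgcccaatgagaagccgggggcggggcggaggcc
Per1: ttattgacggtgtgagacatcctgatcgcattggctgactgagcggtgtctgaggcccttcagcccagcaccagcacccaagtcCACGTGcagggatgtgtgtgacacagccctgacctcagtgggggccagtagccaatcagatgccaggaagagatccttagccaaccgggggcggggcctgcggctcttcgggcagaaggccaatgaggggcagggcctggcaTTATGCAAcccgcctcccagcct
Per3: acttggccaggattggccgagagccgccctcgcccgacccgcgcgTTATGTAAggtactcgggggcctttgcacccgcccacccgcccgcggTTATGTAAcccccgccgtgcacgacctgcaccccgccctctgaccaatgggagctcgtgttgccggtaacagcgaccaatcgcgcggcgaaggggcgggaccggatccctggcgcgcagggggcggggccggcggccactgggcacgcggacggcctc
Arntl: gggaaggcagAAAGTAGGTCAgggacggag
Per1 thus held both an E-box and a D-box, and Per3 held 2 D-boxes with the same letters. A match describes these letters only, and a window without one says nothing of the factor.

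On the TPM scale, which accounts for gene length and so allows levels to be compared between genes, Nr1d1 was the most abundant of the 10, with a median of 86.4 TPM over the 20 mice. Nr1d2 followed at 26.6 TPM, Cry2 at 13.3 TPM and Clock at 11.01 TPM. Cry1, Arntl, Per2, Per1 and Npas2 had medians of 8.22, 8.14, 6.43, 4.95 and 3.48 TPM, and Per3 was lowest at 1.77 TPM. The ranges of neighbours in this order overlapped widely, since single genes spanned from 2.57-fold (Clock) to 61.1-fold (Nr1d1) between the lowest and the highest mouse.

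Each of the 3 activators was lower on average under HFD than on chow, but only Clock passed the edgeR test. Arntl, without which the loop stops, was at 39.5, 40.0, 29.97, 41.4 and 34.0 CPM in the chow-fed mice, and at a lowest of 4.75, a median of 20.3 and a highest of 35.9 CPM in the 15 HFD-fed mice. The chow-fed mice lay close together, whereas the HFD-fed mice spread from chow levels to far lower ones, and 13 of the 15 were below every chow-fed mouse. The log2 difference was -1.05 ± 0.36 (SE, edgeR quasi-likelihood test, adjusted p = 0.065). On the scale of log2(TPM + 1), Arntl differed by -1.17 and passed (limma adjusted p = 0.041). Npas2, the alternative partner of ARNTL, was at 12.0, 15.4, 6.76, 19.2 and 14.3 CPM in chow-fed mice and ranged from 0.849 through a median of 5.81 to 16.4 CPM under HFD. Here the groups overlapped, and the log2 difference of -1.11 ± 0.54 did not pass (adjusted p = 0.21, edgeR). Clock, the partner that varies least over the day, was at 82.9, 67.9, 65.2, 66.3 and 66.0 CPM in chow-fed mice and from 34.1 to 72.0 CPM, with a median of 51.5, under HFD. It fell by 0.45 on the log2 scale (SE 0.14, adjusted p = 0.037, edgeR), with 14 of 15 HFD-fed mice below every chow-fed mouse.

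Among the repressors, both cryptochromes changed with HFD, in opposite directions. Cry1, the later and stronger repressor, was at 24.9, 23.1, 10.0, 20.8 and 13.6 CPM in chow-fed mice and from 4.82 through 9.17 to 18.0 CPM under HFD. It fell by 0.92 on the log2 scale (SE 0.28, adjusted p = 0.042, edgeR), with overlap between the groups. Cry2 was at 17.0, 23.2, 25.3, 16.8 and 23.4 CPM in chow-fed mice and from 28.6 through 37.4 to 56.7 CPM under HFD. It was the only one of the 10 genes without overlap, every HFD-fed mouse lying above every chow-fed mouse, as was the case for 0.695% of the 17120 genes tested, and it rose by 0.87 ± 0.15 (SE, adjusted p = 0.00079, edgeR).

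The 3 Period genes were higher on average under HFD, and Per2 and Per3 passed the test. Per3 was at 4.53, 2.75, 4.72, 2.24 and 2.72 CPM in chow-fed mice and from 2.64 through 10.8 to 68.1 CPM under HFD. With 14 of 15 HFD-fed mice above every chow-fed mouse, it had a log2 difference of 2.62 ± 0.68 (SE, adjusted p = 0.017, edgeR). On the scale of log2(TPM + 1), which compresses low genes such as this one, the difference was 1.38 and did not pass (limma adjusted p = 0.065). Per2, a repressor that also responds to hormones and temperature, was at 12.4, 9.10, 10.1, 6.76 and 7.49 CPM in chow-fed mice and from 9.92 through 17.8 to 46.3 CPM under HFD. It rose by 1.21 ± 0.31 (adjusted p = 0.015, edgeR), and 12 HFD-fed mice were above every chow-fed mouse. Per1, which is induced by light and glucocorticoids, was at 4.36, 10.5, 9.25, 5.38 and 9.59 CPM in chow-fed mice and from 3.20 through 13.4 to 38.05 CPM under HFD. The groups overlapped at both ends and its log2 difference of 1.128 ± 0.42 did not pass (adjusted p = 0.091, edgeR).

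Both REV-ERB genes rose under HFD. Nr1d2 was at 17.5, 11.6, 42.9, 21.2 and 24.1 CPM in chow-fed mice and from 35.1 through 67.3 to 119 CPM under HFD, a log2 difference of 1.58 ± 0.29 (adjusted p = 0.0011, edgeR). A single chow-fed mouse, mouse 5, reached into the HFD range. Nr1d1 was at 3.18, 8.59, 127, 18.2 and 39.1 CPM in chow-fed mice and from 51.8 through 108 to 221 CPM under HFD. Its log2 difference of 1.71 ± 0.54 passed narrowly (adjusted p = 0.048, edgeR), and mouse 5 again stood at an HFD level; without that mouse the difference was 2.89. Nr1d1 lies opposite to Thra, a thyroid hormone receptor gene, and shares 263 exonic bases with it, and Thra held 571 to 1371 counts per library against 212 to 10487 for Nr1d1.

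In all, 7 of the 10 genes were called between HFD-fed and chow-fed mice, 5 up and 2 down, against 9.75% of the 17120 genes tested, of which 4.54% went up and 5.21% down. The median log2 difference of the 10 was 1.00, and that of all genes tested was 0.0050. The count depended on single mice: it was 4 without chow mouse 1, chow mouse 2, fishmeal mouse 20 or beef mouse 39, and 2 without chow mouse 7. Over the 20 fits that left out 1 mouse, the calls of Cry2 and Nr1d2 held in 20, those of Per2 and Per3 in 19, that of Clock in 13, that of Cry1 in 8 and that of Nr1d1 in 6.

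**Figure D1:**
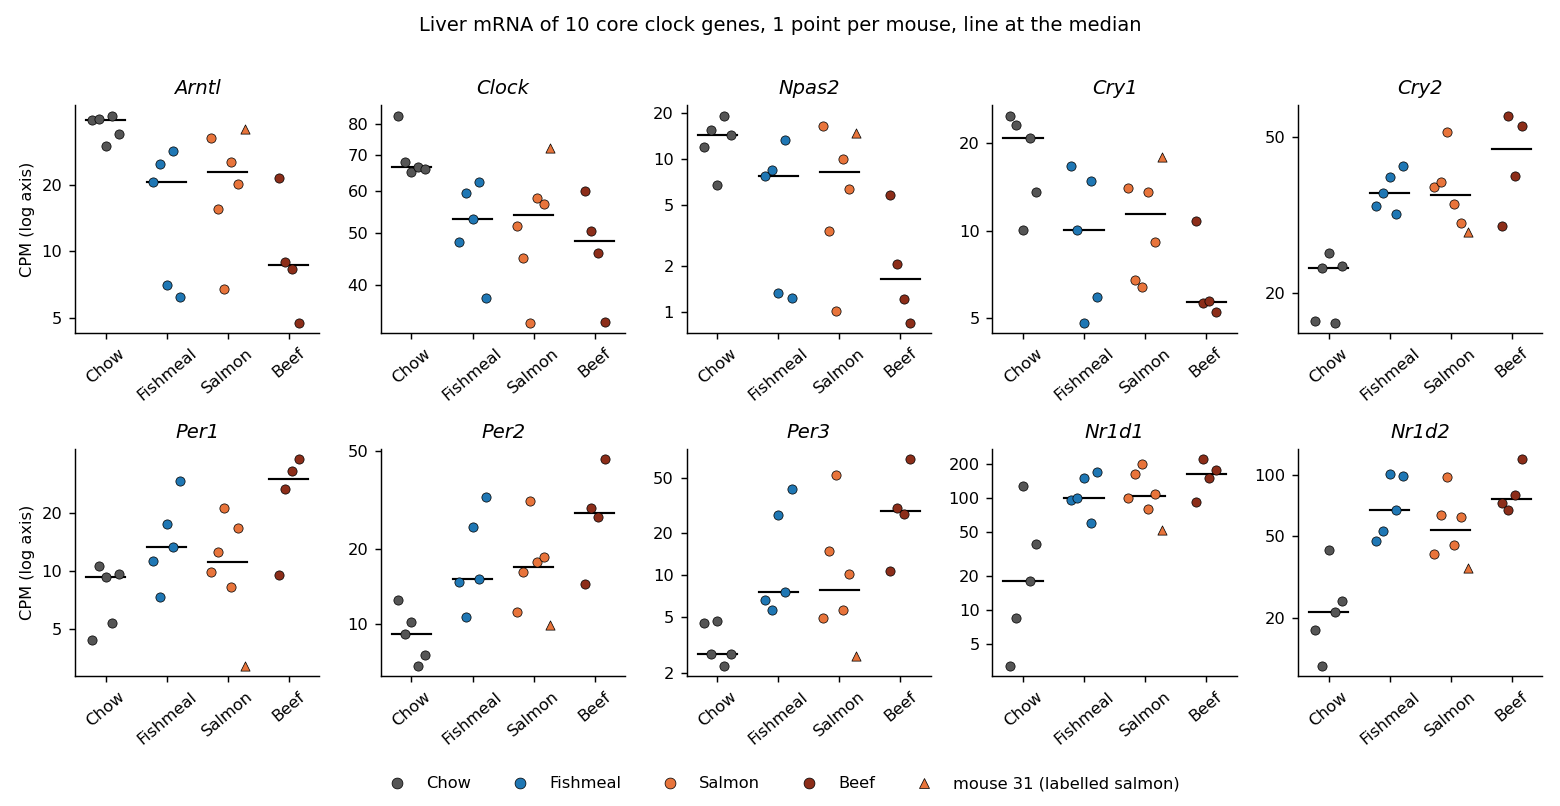
CPM of each clock gene on a log axis, 1 point per mouse by diet, with a line at the group median and a triangle for mouse 31. The 5 chow-fed mice lie close together for Arntl and spread from 3.18 to 127 CPM for Nr1d1, and the HFD-fed mice spread from 2.64 to 68.1 CPM for Per3.

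Each HFD was also set against chow on its own. These comparisons share the chow-fed mice, so they do not repeat each other. With the 4 mice labelled beef, 8 of 10 genes were called (2.48% of 16559 genes tested). With mouse 31 placed in beef by its column name, only 4 were called (3.05% of 16339 genes tested). As labelled, Per3 (3.32 ± 0.44 on the log2 scale), Nr1d2 (1.85 ± 0.31), Per1 (1.77 ± 0.37), Per2 (1.66 ± 0.28) and Cry2 (1.08 ± 0.19) rose. Npas2 (-2.43 ± 0.52), Arntl (-1.76 ± 0.36) and Cry1 (-1.44 ± 0.31) fell. With fishmeal, 3 were called (3.38% of 16471 genes tested), all of them up: Per3 (2.38 ± 0.55), Nr1d2 (1.65 ± 0.32) and Cry2 (0.79 ± 0.14). With salmon filet as labelled, 2 were called (4.46% of 16605 genes tested), Nr1d2 (1.29 ± 0.32) and Cry2 (0.79 ± 0.15). All values are edgeR log2 differences with SE. The fishmeal call of Per3 was lost in 6 of 10 fits that left out 1 mouse, in the edgeR fit on all 4 groups (adjusted p = 0.060) and with limma on log2(TPM + 1) (1.263, adjusted p = 0.17).

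The beef count rests on the 4 mice labelled beef and turned on which mice were counted as beef. Grouping by column name is the likelier of these, so the lower beef count carries more weight. With mouse 31 placed in beef by its column name, 4 genes were called with beef (3.05% of 16339 genes tested) and 4 with salmon filet (4.42% of 16475). The beef calls of Arntl (-1.22, adjusted p = 0.16), Npas2 (-1.45, 0.26), Cry1 (-1.03, 0.15) and Per1 (1.49, 0.15) were then lost in edgeR, and those of Per2, Per3, Nr1d2 and Cry2 remained. Under that grouping Per2 and Per3 were also called up with salmon filet, beside Nr1d2 and Cry2. As labelled, Per2 (0.92 on the log2 scale, edgeR adjusted p = 0.064) and Per3 (2.14, 0.079) had not passed with salmon filet. Mouse 31 itself had Arntl at 35.9, Npas2 at 14.8, Per3 at 2.64 and Per1 at 3.20 CPM. In these 4 genes it was closer to the chow-fed mice than to the 4 mice labelled beef. Those had Arntl at 21.6, 8.96, 8.32 and 4.75 CPM and Per3 at 10.8, 30.6, 27.5 and 68.1 CPM. Clock (72.0 CPM), Cry1 (18.0 CPM) and Per2 (9.92 CPM) of mouse 31 also lay within the chow range. Its Cry2 (28.6 CPM) lay above every chow-fed mouse. Its Nr1d1 (51.8 CPM) and Nr1d2 (35.1 CPM) lay above every chow-fed mouse but mouse 5. The beef count was also 4 without chow mouse 1, 2 or 7 or beef mouse 35 or 39, and 2 without beef mouse 40; mouse 35 is the library with fewer reads on protein coding genes. The salmon filet count was 4 without mouse 31 and 1 without chow mouse 1, 2, 7 or 10 or salmon filet mouse 23, 25, 26 or 27.

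**Figure D2:**
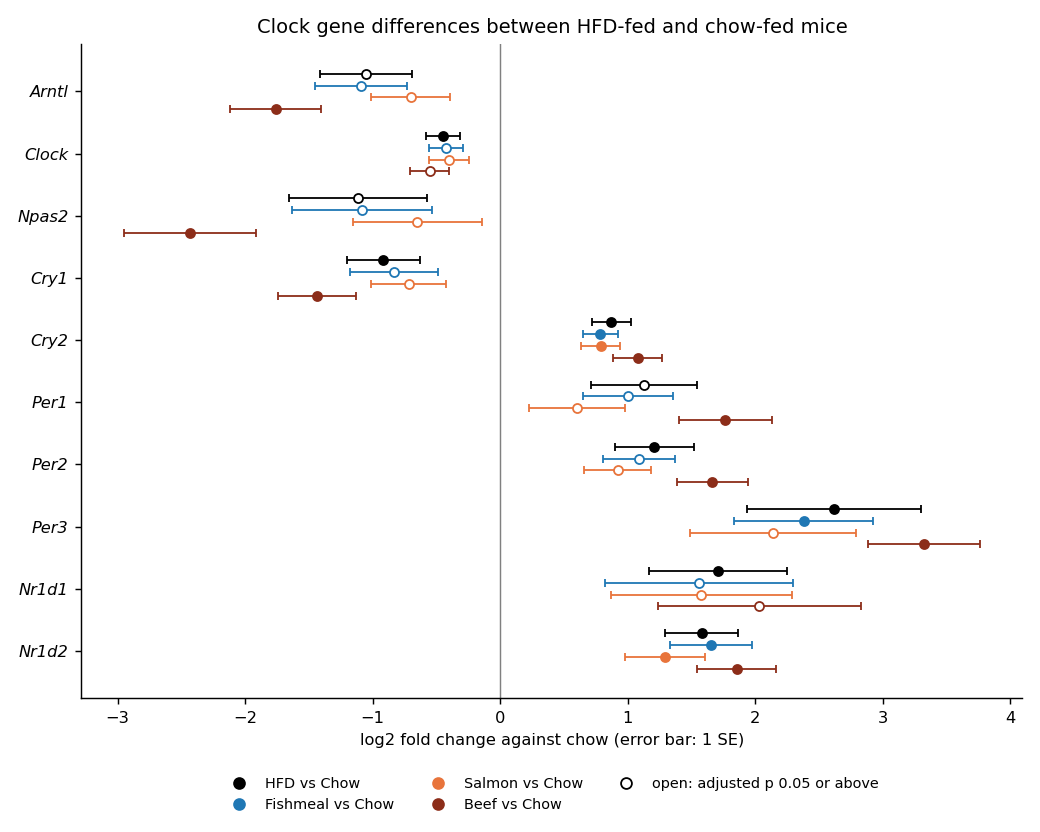
Log2 fold change against chow of each clock gene for all HFD-fed mice (black) and for each HFD, with error bars of 1 SE; filled points passed the edgeR test. For all HFD-fed mice, the difference runs from -1.11 for Npas2 to 2.62 for Per3. Groups follow the labels, with mouse 31 in salmon filet.

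Between the HFDs no clock gene was called. The edgeR quasi-likelihood test called 0 of 10 in each of the 3 comparisons, against 0.157% of all genes between fishmeal and salmon filet, 0.00607% between fishmeal and beef and 0.0% between salmon filet and beef; DESeq2 also called 0 in each. At an unadjusted p under 0.05, 6 of the 10 differed between salmon filet and beef as labelled, against 613 of 16509 genes tested. With mouse 31 placed by its column name, 0 of the 10 did so. Leaving out 1 mouse gave 0 (without beef mouse 39 or 40) to 9 (without salmon filet mouse 25). In the other 2 comparisons 0 had such a p. Of all genes tested, 384 of 16480 had one between fishmeal and beef, and 702 of 16548 between fishmeal and salmon filet. Leaving out 1 mouse gave up to 7 between fishmeal and beef (without beef mouse 32). Between fishmeal and salmon filet it gave up to 1 (without salmon filet mouse 25). The share of all genes in the fits that left out 1 mouse is not given here. The intervals were wide. Arntl was higher with salmon filet than with beef by 1.06 on the log2 scale (95% interval 0.05 to 2.06, edgeR adjusted p = 1.00), and the difference in Per3 was -1.19 (-2.73 to 0.36). With mouse 31 placed by its column name, these differences were 0.34 and -0.67 (edgeR adjusted p = 0.95 and 0.94). For fishmeal against salmon filet, the difference in Per3 was 0.24 (-1.31 to 1.80), an interval that reached far to either side of 0.

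The wide spread had an order: mice low in one set of genes were high in the other. The 6 mice with the lowest Arntl, at 4.75 to 8.96 CPM, were 3 beef, 2 fishmeal and 1 salmon filet mouse, and the next lowest mouse was at 15.5 CPM. The same 6 mice held the 6 lowest values of Npas2 and Cry1 and the 6 highest of Cry2, Per1, Per2 and Per3. They held 5 of the 6 highest values of Nr1d1 and of Nr1d2, and 4 of the 6 lowest of Clock. Within diet groups, the SD of log2 CPM was 1.30 for Npas2 and 1.19 for Per3, at percentiles 99.6 and 99.4 of 17360 genes, whereas Clock and Cry2, both with an SD of 0.30, were at percentiles 51.6 and 51.7.

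To set each gene against Arntl apart from the diet means, a slope on the log2 CPM of Arntl was fitted in every gene with diet group as a term. Of the 9 other clock genes 8 were called, against 0.985% of 17359 genes tested. Npas2 rose with Arntl by 1.58 ± 0.09 log2 units per log2 unit (SE, edgeR adjusted p = 1.57e-09), Cry1 by 0.65 ± 0.10 (adjusted p = 0.0012) and Clock by 0.30 ± 0.06 (adjusted p = 0.0071). Npas2 thus varied over a wider range than Arntl and Clock over a narrower one. Falling with Arntl were Per3 (-1.36 ± 0.10, adjusted p = 4.7e-08), Per1 (-0.72 ± 0.14), Per2 (-0.61 ± 0.08), Nr1d2 (-0.47 ± 0.10) and Cry2 (-0.26 ± 0.06). Nr1d1 had a slope of -0.69 ± 0.26 that did not pass over the 4 groups (adjusted p = 0.30), but in the 15 HFD-fed mice alone it did (-0.57, adjusted p = 0.0047, edgeR), whereas Cry2 there no longer passed (-0.25, adjusted p = 0.056). The count was 5 without fishmeal mouse 20 or salmon filet mouse 25, which are among the mice lowest in Arntl.

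**Figure D3:**
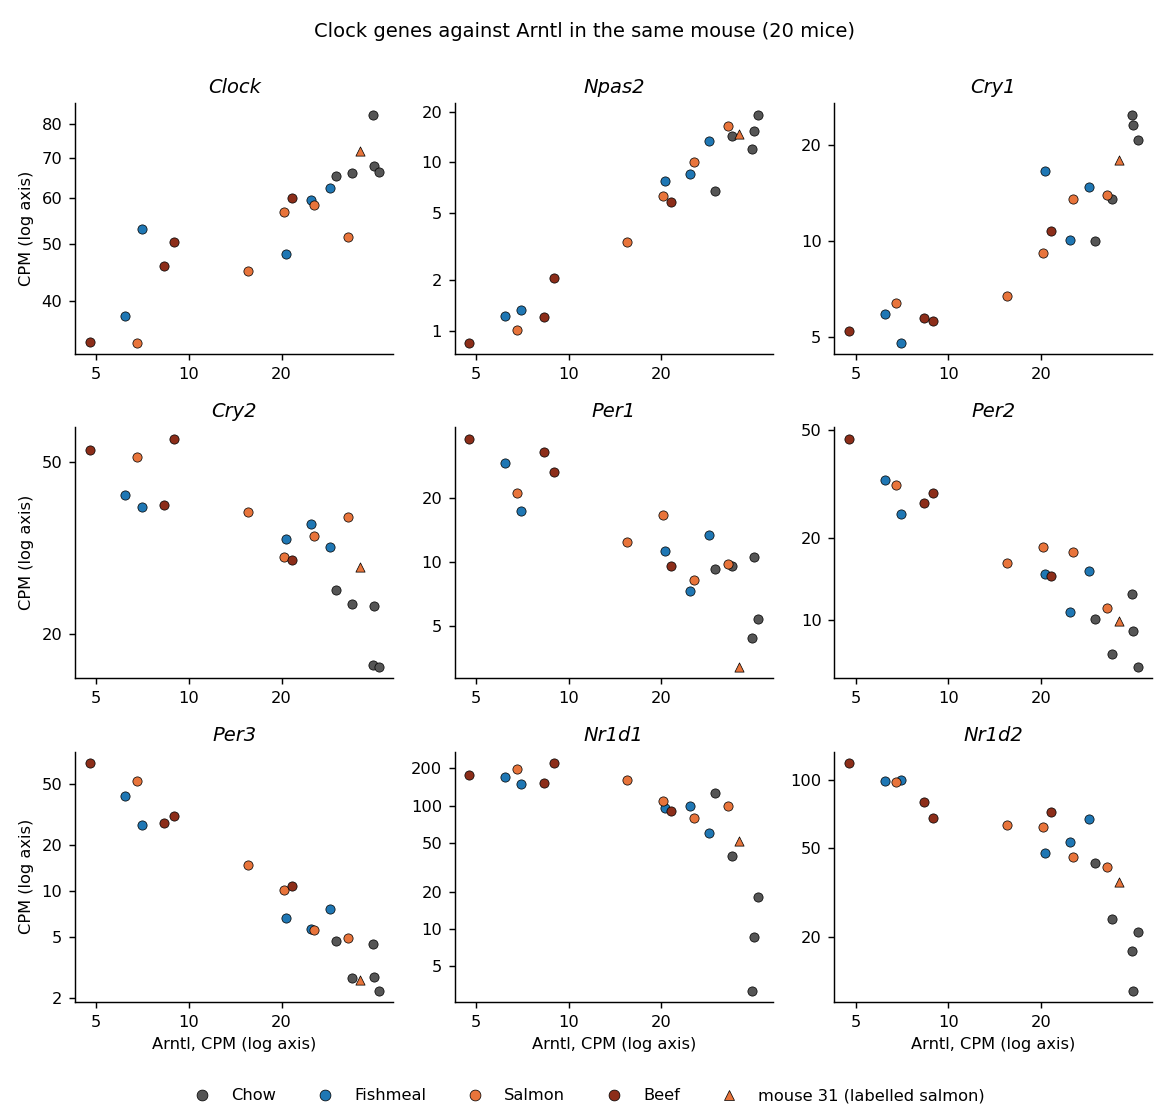
CPM of 9 clock genes against CPM of Arntl in the same mouse, both on log axes, coloured by diet, with a triangle for mouse 31. Npas2 and Per3 follow Arntl along single rising and falling bands across all diets, while Nr1d1 drops steeply among the chow-fed mice, whose Arntl is at 29.97 to 41.4 CPM.

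The same relations were seen as correlations of deviations from the diet group means over 20 mice, of which 45 pairs were computed. Arntl and Npas2 had r = 0.98 and rho = 0.98 (permutation p = 1e-05 for each), and r = 0.96 without the 2 mice farthest from the median of Arntl. Arntl and Cry1 had r = 0.85 (permutation p = 1e-05) and rho = 0.88 (p = 2e-05), and r = 0.83 without those 2 mice. Arntl and Per2 had r = -0.89 (permutation p = 9e-05) and rho = -0.80 (p = 0.0006), and r = -0.83 without them. These pairs also passed over all genes in the slope fit above. All 4 genes share libraries with each other, so a mouse that stands apart enters every pair.

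For Nr1d1 the values over 20 mice lay apart from those in the HFD-fed mice alone, a difference that was not tested. Arntl and Nr1d1 had r = -0.49 (permutation p = 3e-05) but rho = -0.77 (p = 3e-05), and r = -0.44 without the 2 mice farthest in Arntl; in the 15 HFD-fed mice r was -0.86 (permutation p = 0.0002). Per2 and Nr1d1 had r = 0.25 (permutation p = 0.19) and rho = 0.41 (p = 0.081) over 20 mice, r = 0.13 without the 2 mice farthest in Per2, and r = 0.75 (permutation p = 0.0034) in the HFD-fed mice. For the slope on Per2 fitted over all genes, 4 of 9 clock genes were called (0.3% of 17359 genes tested): Per3 (1.94 ± 0.17 per log2 unit of Per2) and Per1 (1.06 ± 0.20) rose with Per2, and Npas2 (-1.91 ± 0.29) and Arntl (-1.26 ± 0.17) fell. Nr1d1 had a slope of 0.74 on Per2 (95% interval -0.11 to 1.58, edgeR adjusted p = 0.89).

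The diets spread along different genes. In chow-fed mice the SD of log2 CPM was 2.03 for Nr1d1, at percentile 99.9 of all genes, but 0.20 for Arntl, at percentile 37.6. In HFD-fed mice it was 0.63 for Nr1d1, at percentile 89.1, and 0.99 for Arntl, at percentile 98.5. Per3 spanned 2.10-fold from the lowest to the highest chow-fed mouse and 25.8-fold among HFD-fed mice, whereas Nr1d1 spanned 40.0-fold among chow-fed and 4.28-fold among HFD-fed mice. The difference in spread between the diets was not tested.

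Ordered by Nr1d1, the 5 chow-fed mice (1, 2, 7, 10 and 5) rose from 3.18 through 8.59, 18.2 and 39.1 to 127 CPM. Of the genes that REV-ERB proteins repress, Cry1 fell in the same order from 24.9 through 23.1, 20.8 and 13.6 to 10.0 CPM. Clock also fell in that order, at 82.9, 67.9, 66.3, 66.0 and 65.2 CPM, but apart from mouse 1 its values lay close together. Arntl and Npas2 did not follow that order, at 39.5, 40.0, 41.4, 34.0 and 29.97 CPM and at 12.0, 15.4, 19.2, 14.3 and 6.76 CPM, though both were lowest in mouse 5. Nr1d2 was at 17.5, 11.6, 21.2, 24.1 and 42.9 CPM in that order. Per3 did not follow, at 4.53, 2.75, 2.24, 2.72 and 4.72 CPM: it was highest in the mice with the least and the most Nr1d1.

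**Figure D4:**
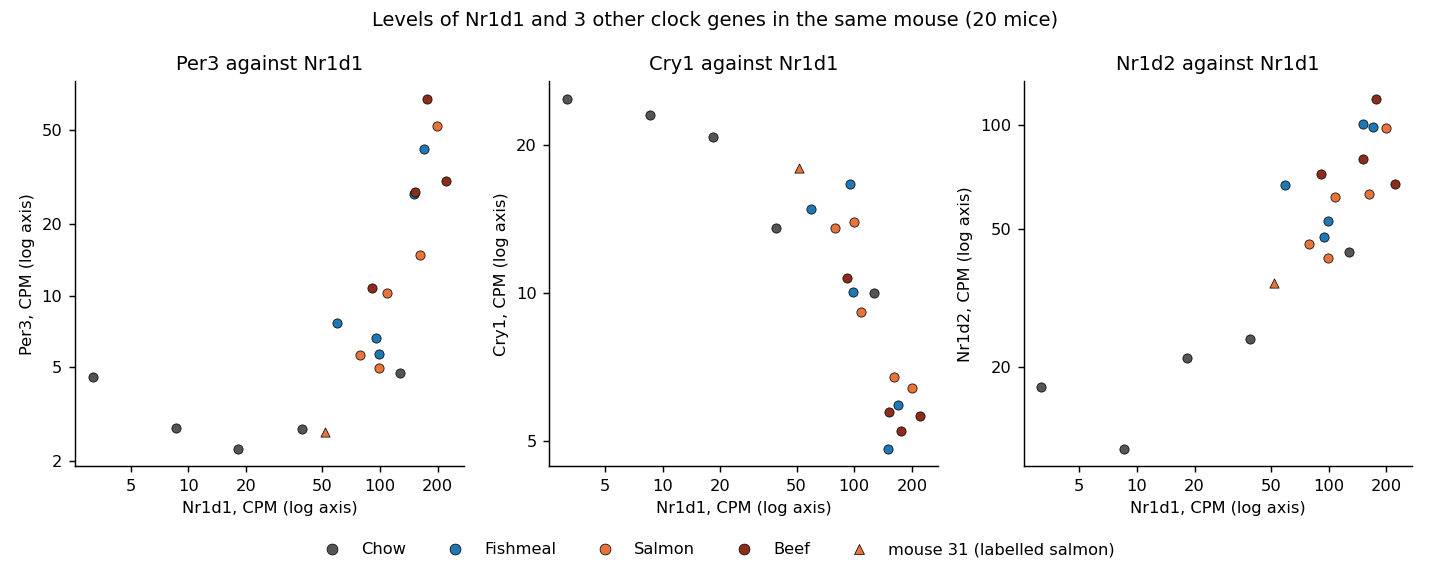
CPM of Per3, Cry1 and Nr1d2 against CPM of Nr1d1 in the same mouse, on log axes and coloured by diet, with a triangle for mouse 31. From the lowest Nr1d1 upwards the chow-fed mice run along the bottom of the Per3 panel at 2.24 to 4.72 CPM, and the HFD-fed mice, whose Nr1d1 is at 51.8 CPM or more, spread from 2.64 to 68.1 CPM of Per3.

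**Figure D5:**
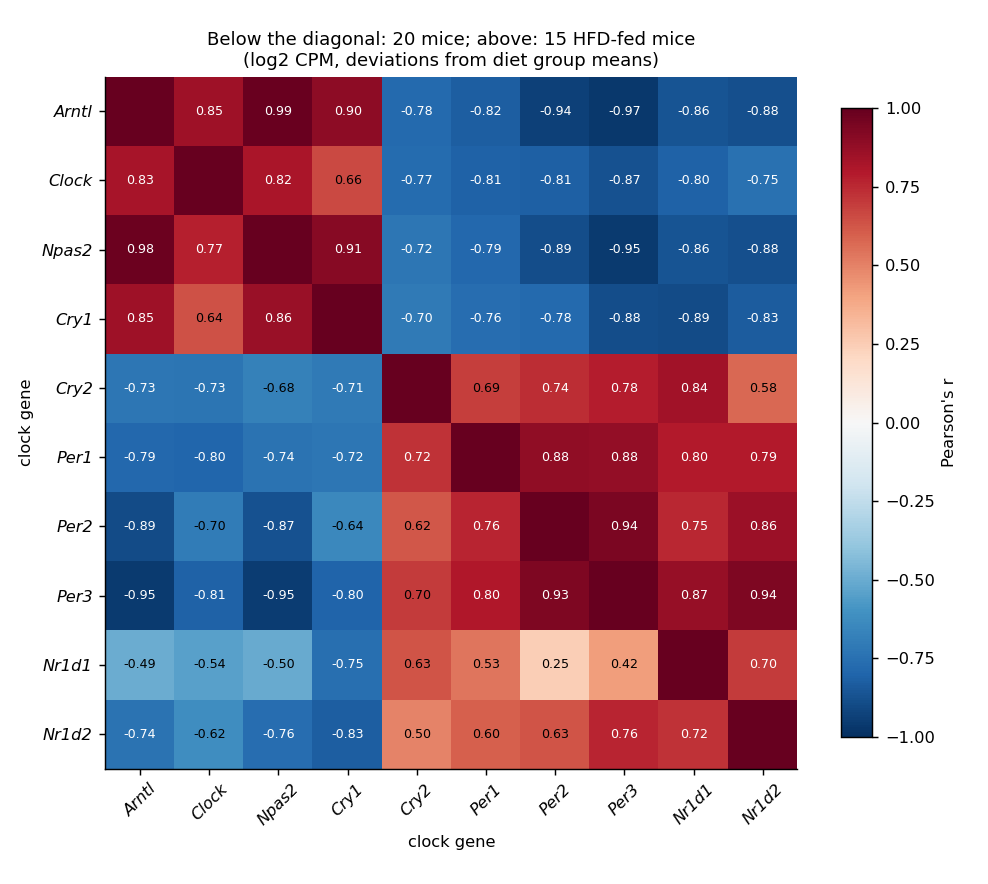
Pearson's r for the 45 pairs of clock genes, from deviations of log2 CPM from the diet group means, over 20 mice below the diagonal and over the 15 HFD-fed mice above it. Arntl, Clock, Npas2 and Cry1 form a block with r above 0, the other 6 genes form another, and r between the blocks is below 0 in 24 pairs; the row of Nr1d1 is paler over 20 mice than over the HFD-fed mice.

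Since the diets differed in their average place along this order, HFD was also compared with chow at equal Arntl, in a fit chosen after seeing the data that adds the log2 CPM of Arntl as a covariate. Of the 9 other clock genes 2 were then called (2.63% of 17119 genes tested). Nr1d2 was higher with HFD by 0.89 ± 0.21 and Cry2 by 0.51 ± 0.12 on the log2 scale (edgeR adjusted p = 0.019 and 0.022). Per3 differed by 0.24 ± 0.21 (adjusted p = 0.69), Per2 by 0.25 ± 0.16 (adjusted p = 0.52) and Nr1d1 by 0.88 ± 0.50 (adjusted p = 0.45). Arntl is itself one of the measured genes and differed between the diets on average, and 13 of the 15 HFD-fed mice lay outside the range of Arntl in chow-fed mice.

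Of 13 genes known as outputs or partners of the clock, 4 were called between HFD-fed and chow-fed mice, all up (4.54% of all genes tested were called up): Dbp (4.70 ± 1.00), Ciart (3.29 ± 0.94), Tef (1.80 ± 0.38) and Hlf (0.49 ± 0.12). DBP, TEF and HLF are the factors that act through the D-box shown for Per1 and Per3, and CIART represses the ARNTL and CLOCK pair. Dbp was at 0.734, 0.765, 2.28, 0.932 and 1.82 CPM in chow-fed mice and from 1.159 through 14.6 to 115 CPM under HFD. Ciart was at 0.240, 0.130, 0.281, 0.0424 and 0.194 CPM in chow-fed mice, with a median of 0.411 CPM over the 20 mice. Bhlhe41 had a median of 0.298 CPM, so many values of these genes rest on few reads. Nfil3, which opposes DBP at the D-box, differed by -0.59 ± 0.23 (adjusted p = 0.10, edgeR). With Arntl, 8 of the 13 were called, against 0.985% of all genes tested: Nfil3 rose (0.48 ± 0.07 per log2 unit), and Dbp (-1.85 ± 0.15), Ciart (-1.68 ± 0.17), Usp2 (-1.38 ± 0.18), Bhlhe41 (-1.13 ± 0.24), Tef (-0.80 ± 0.05), Wee1 (-0.77 ± 0.08) and Hlf (-0.23 ± 0.04) fell. Of 12 genes for enzymes and cofactors that act on clock proteins, such as casein kinases and ubiquitin ligases, 1 was called with HFD, a share near the 9.75% of all genes: Btrc (0.22 ± 0.07, adjusted p = 0.047, edgeR). With Arntl, 0 were called in the edgeR test (1 at an unadjusted p under 0.05, against 2009 of 17359 genes tested).

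The protein coding genes whose deviations were most like those of a clock gene over the 20 mice were sought among 11558 genes, as a description. For Arntl they were Clpx (r = 0.94), Asap2 (0.93) and Leo1 (0.92), for Cry1 Lmo4 (0.91), Mreg (0.90) and Ptpn9 (0.88), and for Per2 Ciart (0.91), Usp2 (0.91) and Wee1 (0.89). For Nr1d1 they were Rcl1 (0.89), Pck1 (0.88) and Rgs16 (0.86); in the HFD-fed mice alone r was 0.55 for Pck1, which encodes a fasting-induced enzyme of glucose synthesis. The points share their libraries, and r was highest because it was chosen so.

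Genes of feeding, stress and other cell types were measured beside the clock. Of 12 genes that respond to fasting and feeding, 3 were called with HFD, 2 up and 1 down, against 9.75% of all genes: among them, Srebf1 (1.42 ± 0.18), a lipogenic factor, rose, and Pdk4 (-1.29 ± 0.32), a fasting-induced kinase, fell. With Arntl 0 of the 12 were called by edgeR, and 6 had an unadjusted p under 0.05, against 2009 of 17359 genes tested. Markers of T and B cells (6 genes) summed to 4.69 to 10.1 CPM in chow-fed and 2.02 to 4.72 CPM in HFD-fed mice, with 5 of 6 called lower and 0 of 6 at 0 in all mice. Immediate early and heat shock genes (10 genes) summed to 49.0 to 424 CPM in chow-fed and 40.1 to 198 CPM in HFD-fed mice. The part of feeding state, of stress at sampling and of immune cells in the clock differences was not tested.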

How the data were processed

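Liver RNA of 20 mice was sequenced, 1 library per mouse. Per the authors' methods, reads were trimmed with BBDuk, aligned with HISAT2 1.2.1 and counted per Ensembl gene with featureCounts 1.4.6-p1. The deposited files hold raw counts and, in a second table, TPM values that the authors scaled to gene length and library size. Their submission prints a human build for this mouse genome, so positions here are those of GENCODE M21 and RefSeq on GRCm38. Members were matched by symbol, and the members and gene lists were chosen with earlier results of these data known.

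Counts were tested with edgeR 4.0.16 in R 4.3.3 (TMM factors, filterByExpr with a minimum count of 10, two-sided quasi-likelihood F-tests), and p-values were adjusted by Benjamini-Hochberg over all genes tested, with calls at an adjusted p under 0.05. CPM used TMM factors over all 20 libraries and log2 CPM a prior count of 2. Relations from mouse to mouse were fitted as a slope on the log2 CPM of Arntl or Per2 with diet group as a term, and as Pearson's r and Spearman's rho of deviations from the diet group means, with 100000 permutations within groups (seed 5). The smallest p these permutations can give is 1e-05. The named genes were the 10 members, other clock genes on a list (all counted, with values for Dbp, Nfil3, Ciart and those called), and for Arntl, Nr1d1, Per2 and Cry1 the 3 protein coding genes of the most similar pattern with a mean of at least 1 CPM. DESeq2 1.42.0, limma 3.58.1 on log2(TPM + 1), other scalings and filters, other sample sets and leaving out each mouse were alternatives, and 1 fit with Arntl as a covariate was chosen after seeing the data. The fits were tested on simulated data. No column of the tables was left out, and some genes that the rule names are not reported here.

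Each library held between 42526234 and 70266136 reads on genes, which sets the counting error. No pair of libraries among the 41 within groups came close to sampling noise (chi-square divided by the number of genes, 35.1 to 457). The groups follow the labels, in which mouse 31 is a salmon filet mouse. Its column name, beef, is the likelier group, since the paper describes groups of equal size. Nothing states how the counting treated strand, so reads where Nr1d1 and Thra overlap cannot be assigned with certainty.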

Additional observations from a re-analysis of the deposited data

Results flagged for a closer look

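The lowest and highest value of each clock gene in each diet group was compared with the gap to the next mouse, over 40 groups of values, of which chance flags about 1 in 20. Clock in chow mouse 1, at 82.9 CPM, stood apart from the other chow-fed mice, with a gap of 0.826 of the group's range on the log2 scale. Cry1 in beef mouse 32, at 10.8 CPM, stood apart from the other mice labelled beef, with a gap of 0.872 of the range.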

How the results depend on the processing

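Scaling by DESeq2 size factors or upper quartiles and a filter of 10 counts in every library left every count of called clock genes as reported. With DESeq2, 8 clock genes were called with HFD, 9 with beef, 5 with fishmeal and 4 with salmon filet, each against chow, and 7 with Per2. Keeping all genes with at least 1 count gave 5 with HFD against chow, where Cry1 and Nr1d1 were lost, and 7 with Arntl. With limma on log2(TPM + 1), 6 were called with beef against chow and 6 with Arntl. With mouse 31 placed by its column name, the counts were 4 for salmon filet and 4 for beef against chow. In the slope fits with that grouping, 8 were called with Arntl and 4 with Per2, as under the labels. Without a group term 9 were called with Per2. In the fit at equal Arntl, added once the data had been seen, 2 were called between HFD and chow, and the differences of Npas2 (0.36) and Per1 (-0.11) turned sign. The correlation of Per2 and Nr1d1 passed when not centred (0.63) and in HFD-fed mice only (0.75). Leaving out 1 mouse gave counts of 2 to 9 for HFD, 2 to 4 for fishmeal, 1 to 4 for salmon filet and 2 to 9 for beef against chow, 5 to 8 with Arntl and 3 to 6 with Per2, and r from 0.17 to 0.51 for Per2 and Nr1d1, highest without chow mouse 1. The causes of these shifts were not tested. Between HFDs the count was 0 in every alternative run. No paired analysis was possible because each mouse number occurs once and in a single diet group. With 4 to 6 mice a group and 1 unknown time of day each, the spread between mice, not depth, limits these comparisons.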
